A study of Mus musculus with 21 samples.

Results

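Liver tumours of mice fed CD-HFD, a choline-deficient high-fat diet that causes non-alcoholic steatohepatitis (NASH), were examined for gains and losses of chromosomes by array comparative genomic hybridization. Of the 21 tumours of the series, the 9 whose sample names end in CD were taken. The other tumours, from animals that also received anti-PD1, were not compared with them as a group. They entered only an alternative in which the median profile of all 21 tumours was subtracted. Values of that alternative are distances from the series median and not from the reference. All 9 came from C57BL/6 mice that had received CD-HFD for 12 months and no antibody, and only a subgroup of animals on this diet had tumours. The methods of the study describe its mice as male. Lesions whose names start with the same number were read as tumours of one mouse, which gave 7 mice, mouse 1770 with lesions 1 and 4, mouse 2064 with lesions 1 and 2, and 1 tumour each from mice 2067, 2085, 2088, 2115 and 822. The design text of the series counts each tumour as a mouse, so the tests were repeated with every tumour taken as independent. DNA came from fixed, paraffin-embedded sections, and a section holds whatever stromal, immune and non-tumour liver cells lay beside the tumour cells, in a share that was not measured. Tumour DNA carried Cy3 and a reference pool of C57BL/6 DNA, named in the labels as liver tails, carried Cy5 on every array, without a dye swap.

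Aneuploidy, the gain or loss of whole chromosomes, is common in hepatocellular carcinoma, where it can change the dose of many genes at the same time. Mouse chromosomes are acrocentric, with the centromere near one end, so that a change of a whole arm is a change of nearly the whole chromosome. Array comparative genomic hybridization reads such changes from competition: tumour and reference DNA bind to the same probes, and the log2 ratio of their signals rises where the tumour has more copies and falls where it has fewer. The ratio is an average over all cells of the section, so that a change carried by part of the cells, or diluted by normal cells, gives a smaller value than the same change in every cell.

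Each array held 59052 spots that were not controls, of which 100 to 228 had outlier flags and were left out, and 51751 to 52392 autosomal probes remained per tumour. Ratios were centred on the median of each array, which leaves the number of copies at a ratio of 0 unknown. In a pure diploid tumour 1 extra copy would be a log2 ratio of 0.58 and 1 copy less would be −1. A chromosome whose probes averaged at least 0.2 was called gained and one at −0.2 or below lost. Chromosomes were also cut into segments of at least 10 probes with one level each, called at the same threshold. At least 82.1% of spots on each array were well above background in the tumour channel, and the noise of an array, a robust standard deviation of differences between neighbouring probes divided by the square root of 2, was 0.42 to 0.68 (median 0.51). The tumours lay on 3 slides with 2 array designs: 4 on slide 1, 4 on slide 2 and 1, that of mouse 822, on slide 3. Group values rest on 7 mice, and the standard deviation of a chromosome mean between mice was 0.028 to 0.15.

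The ratios also followed the share of G and C bases (GC content). In the tenth of probes with the fewest G and C bases the mean log2 ratio was 0.23 ± 0.042 (SD, n = 7 mice), and in the tenth with the most it was −0.24 ± 0.075 (SD, n = 7). The means of these 2 sets did not overlap over the 9 tumours, at 0.16 to 0.28 for the low-GC set and −0.39 to −0.099 for the high-GC set. The probes of chromosome 1 nearest to the 5th and the 95th percentile of GC content on that chromosome are shown as examples, with G and C in capitals, together with the probe nearest to the middle of Cdkn2a, the tumour suppressor locus on chromosome 4, and that nearest to the middle of Met, the receptor of hepatocyte growth factor, on chromosome 6. Positions are those of the files (mm9), and sequences are printed 5′ to 3′ as the files give them.
Chromosome 1, 5th percentile (chr1:4354213-4354272): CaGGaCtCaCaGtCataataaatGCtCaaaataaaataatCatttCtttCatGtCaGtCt
Chromosome 1, 95th percentile (chr1:33870567-33870622): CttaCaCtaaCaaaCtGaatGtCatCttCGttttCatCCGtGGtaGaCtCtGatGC
Cdkn2a (chr4:88934358-88934417): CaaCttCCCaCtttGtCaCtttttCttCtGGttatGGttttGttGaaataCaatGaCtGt
Met (chr6:17476371-17476430): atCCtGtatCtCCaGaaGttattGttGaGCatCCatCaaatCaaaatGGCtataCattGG
The first probe had log2 ratios of −0.033 to 0.63 (median 0.30) over the 9 tumours, and the second −0.48 to 0.11 (median −0.32). On both of them the highest value was that of mouse 2064 lesion 1 and the next that of mouse 2088 lesion 1, the tumours in which the whole of chromosome 1 was high. Single probes did not all follow this pattern, since the probe chosen in the same way at the 5th percentile of chromosome 4 was below 0 in all 9 tumours, at −1.33 to −0.38 (median −0.69), and the one at the 95th percentile read −2.43 to −0.82 (median −1.57). The Cdkn2a probe read −1.19 in mouse 1770 lesion 1 and −0.39 in mouse 2064 lesion 1, and −0.16 to 0.31 in the other 7 tumours. The Met probe was lowest in mouse 2064 lesion 1, at −0.82, with −0.67 to −0.19 in the others. The Met probe was thus below 0 in all 9 tumours, also where the rest of chromosome 6 was above it. The values below are means over several to many probes, and for part of them values after a correction for GC content (a quadratic fit for each array, on the share of G and C in a probe and in its surrounding 50 kb) are given too.

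With arrays centred on the median, gains and losses of whole chromosomes were found in 3 of the 9 tumours. Of 171 pairs of chromosome and tumour, 15 reached the threshold, with 8 gains and 7 losses on 11 different chromosomes. Mouse 2064 lesion 1 had 8 of them, mouse 1770 lesion 1 had 4 and mouse 2088 lesion 1 had 3. These are 3 of 7 mice, or 42.9% (95% exact Clopper-Pearson interval 9.90 to 81.6%, counting error only). Gains ran from 0.22 to 0.46 and losses from −0.31 to −0.21, and the remaining 156 pairs lay between −0.16 and 0.19. In all 15 the proximal, the middle and the distal part of the chromosome, of equal length, had the same sign, before and after the GC correction. By segments, at least 97.1% of the length was called in the direction of the change, except for chromosome 6 of mouse 2088 lesion 1 with 54.8%, and after the correction chromosomes 6 and 18 of that tumour had 0.308% and 0%. With a normexp background correction 2 gains and 1 loss reached the threshold, with the sign of all 15 kept. Of the 15, 13 stayed at or past the threshold after the GC correction, all 15 kept their sign, and the chromosomes not called before lay between −0.15 and 0.19.

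**Figure D1:**
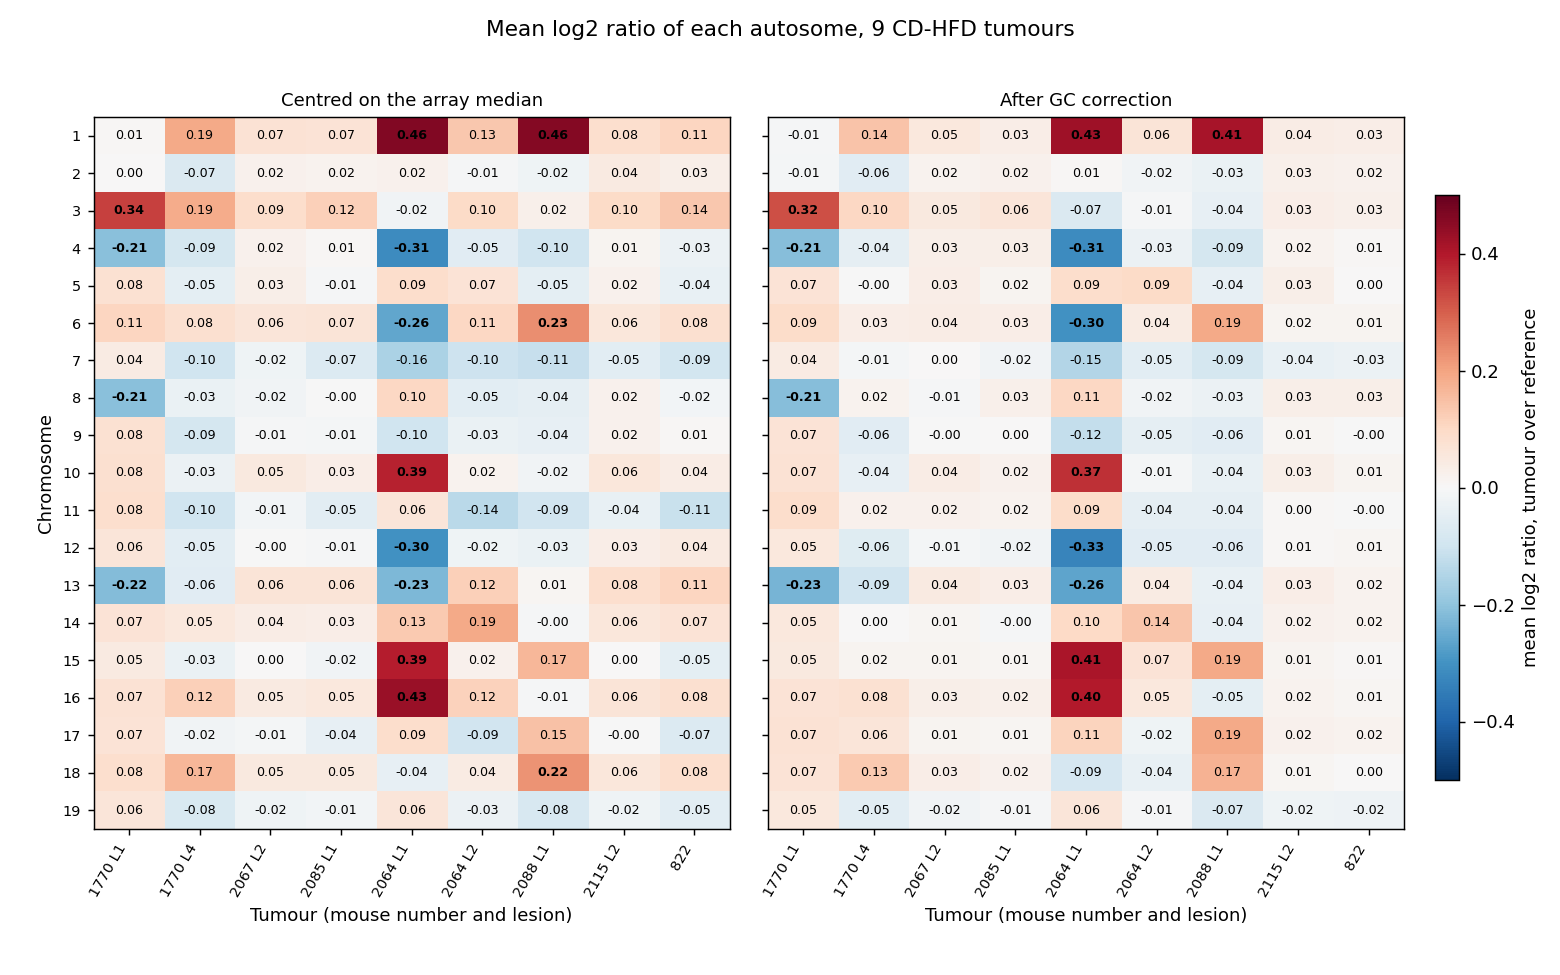
Mean log2 ratio of tumour over reference for each autosome (rows) in each of the 9 tumours (columns, mouse number and lesion), centred on the array median on the left and after GC correction on the right, with bold figures where the mean is at least 0.2 from 0. The 15 bold values on the left lie in 3 columns, 1770 L1, 2064 L1 and 2088 L1, and 13 of them are bold on the right too.

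Mouse 2064 lesion 1 gained chromosomes 1, 10, 15 and 16 and lost chromosomes 4, 6, 12 and 13. Chromosome 1 had a mean log2 ratio of 0.46, with a standard deviation of 0.21 over its 167 windows of 1 Mb, and 163 of the windows were above 0. Chromosome 16 stood at 0.43 (81 of 84 windows above 0), chromosome 15 at 0.39 (90 of 91) and chromosome 10 at 0.39 (112 of 114). The losses were smaller in size: −0.31 on chromosome 4 (117 of 132 windows below 0), −0.30 on chromosome 12 (84 of 95), −0.26 on chromosome 6 (123 of 136) and −0.23 on chromosome 13 (95 of 109). All 8 stayed past the threshold after the GC correction, where the gains were 0.37 to 0.43 and the losses −0.33 to −0.26. With normexp only chromosomes 1 (0.22) and 4 (−0.20) did so. This array was among the noisier ones, with a noise of 0.63, and 85.0% of its spots were well above background in both channels. Its other 11 chromosomes lay between −0.16 (chromosome 7) and 0.13 (chromosome 14).

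The listed cancer and liver genes on these chromosomes were read in the same tumour. The level of a gene is the mean over all probes within 500 kb of it. On the lost chromosome 4 the neighbourhood of Cdkn2a, whose products restrain the cell cycle and stabilize p53, read −0.54, and that of Arid1a, a subunit of the SWI/SNF chromatin remodeller, read −0.48. Jun, a transcription factor of the AP-1 complex on the same chromosome, was at 0.13, and at 0.041 after the GC correction, but at −0.23 with the authors' loess ratios and −0.056 with the median profile of all 21 tumours subtracted, so that its direction depended on the scale. On the lost chromosome 6 the values were −0.23 around Met and −0.22 around Braf, a kinase of the MAPK cascade. On the lost chromosome 12 they were −0.48 around Akt1, a kinase of the insulin and growth factor response, and −0.28 around Foxa1, a pioneer factor of liver development, and after the GC correction these became −0.25 and −0.46. Tert, the catalytic subunit of telomerase, on the lost chromosome 13, was at −0.12, and at −0.071 after the GC correction. In mouse 1770 lesion 4, without a loss of chromosome 13, Tert was lower before the correction, at −0.25, and at −0.051 after it. On the gained chromosomes Arid2, another chromatin remodeller subunit (chromosome 15), reached 0.69, Lgr5, a Wnt target and receptor of R-spondins (chromosome 10), 0.63, Mdm2, the ubiquitin ligase of p53 (chromosome 10), 0.43, and Myc, the growth-promoting transcription factor (chromosome 15), 0.24. Stk11, the kinase LKB1, on the gained chromosome 10, was near 0, at 0.028, with 0.31 after the GC correction, −0.16 with normexp, −0.082 on probes common to both designs and −0.046 within 250 kb. For Arid2, Lgr5, Mdm2 and Myc this tumour was the highest of the 9, and for Cdkn2a, Arid1a, Met, Braf and Foxa1 it was the lowest. Akt1 was as low or lower in 3 other tumours before the GC correction, and after it this tumour was the only one of the 9 below 0.

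Mouse 1770 lesion 1 gained chromosome 3 and lost chromosomes 4, 8 and 13. The gain of chromosome 3 had a mean of 0.34, with 131 of 133 windows above 0, and its proximal, middle and distal parts stood at 0.33, 0.34 and 0.35. The losses were −0.21 on chromosome 4 (123 of 132 windows below 0), −0.21 on chromosome 8 (105 of 110) and −0.22 on chromosome 13 (101 of 109). All 4 were past the threshold after the GC correction too, at 0.32, −0.21, −0.21 and −0.23. With normexp they were at 0.18, −0.087, −0.095 and −0.093, all short of the threshold. This array had the lowest median tumour signal of the 9, at 38.9. It also had the lowest share of spots well above background in both channels, 82.0%. The ratios of this tumour followed GC content least of the 9, with a slope within chromosomes of −0.034 per 10 percentage points against −0.58 to −0.18 in the others. Its chromosomes without a change sat slightly above 0, and when the array was centred on the most common level of its windows, 0.080 higher, the gain became 0.26 and the losses −0.29, −0.29 and −0.30.

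Nras, a GTPase of the Ras family, and Mcl1, which protects cells from apoptosis, lie on the gained chromosome 3, and their neighbourhoods read 0.43 and 0.41 in this tumour, the highest of the 9 for each. Chromosome 8 carries Dlc1, a tumour suppressor, with −0.085 in this tumour and 0.057 to 0.30 in the others. Around Tert on chromosome 13 the value was −0.31, the lowest of the 9. On chromosome 4, Jun was at −0.33, Arid1a at −0.25 and Cdkn2a at −0.11. Each turned under 1 alternative, Jun to 0.15 on probes common to both designs, Arid1a to 0.091 with the profile subtracted and Cdkn2a to 0.026 with normexp. Arid1a was lower than this in 4 other tumours, and after the GC correction it was lower in mouse 2064 lesion 1 only.

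Mouse 1770 lesion 1 also lost parts of chromosomes, chosen for description after their values were seen. The distal 50.6 Mb of chromosome 1 (chr1:146609550-197188286, mm9) had a mean of −0.21 over 1121 probes, next to a level of 0.095 on the rest of the chromosome. Over the same stretch the other 8 tumours read 0.057 to 0.48. The mean of the whole chromosome, 0.0057, does not show this loss. On chromosome 2 a stretch of 31.2 Mb (chr2:57915805-89131115) stood at −0.21 over 716 probes, between flanks of 0.057 and 0.049. It holds Nfe2l2, the transcription factor NRF2 of the response to oxidative stress, whose neighbourhood read −0.21 in this tumour and 0.034 to 0.43 in the others. Both stretches were called again after the GC correction, at −0.22 and −0.25, with the same break on chromosome 1.

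Mouse 2088 lesion 1 gained chromosomes 1, 6 and 18 and lost no whole chromosome. Chromosome 1 was at 0.46 with 167 of 167 windows above 0, and at 0.41 after the GC correction. Chromosome 6 was at 0.23 (130 of 136 windows above 0) and chromosome 18 at 0.22 (72 of 75), and after the GC correction these were 0.19 and 0.17, just under the threshold. Chromosomes 15 and 17 were just under it on both scales, at 0.17 and 0.15 before and 0.19 and 0.19 after the correction. On chromosome 6 the neighbourhood of Met read 0.42 and that of Braf 0.28. The Myc neighbourhood on chromosome 15 was at 0.13, and the only others above 0 were mouse 2064 lesion 1 at 0.24 and mouse 2085 lesion 1 at 0.013. A stretch of chromosome 4 (chr4:28123716-48131128) was lost, with −0.36 over 391 probes, and was called with the same ends after the GC correction. None of the listed genes lies in it. Over the same stretch the other 8 tumours read −0.35 to 0.023.

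**Figure D2:**
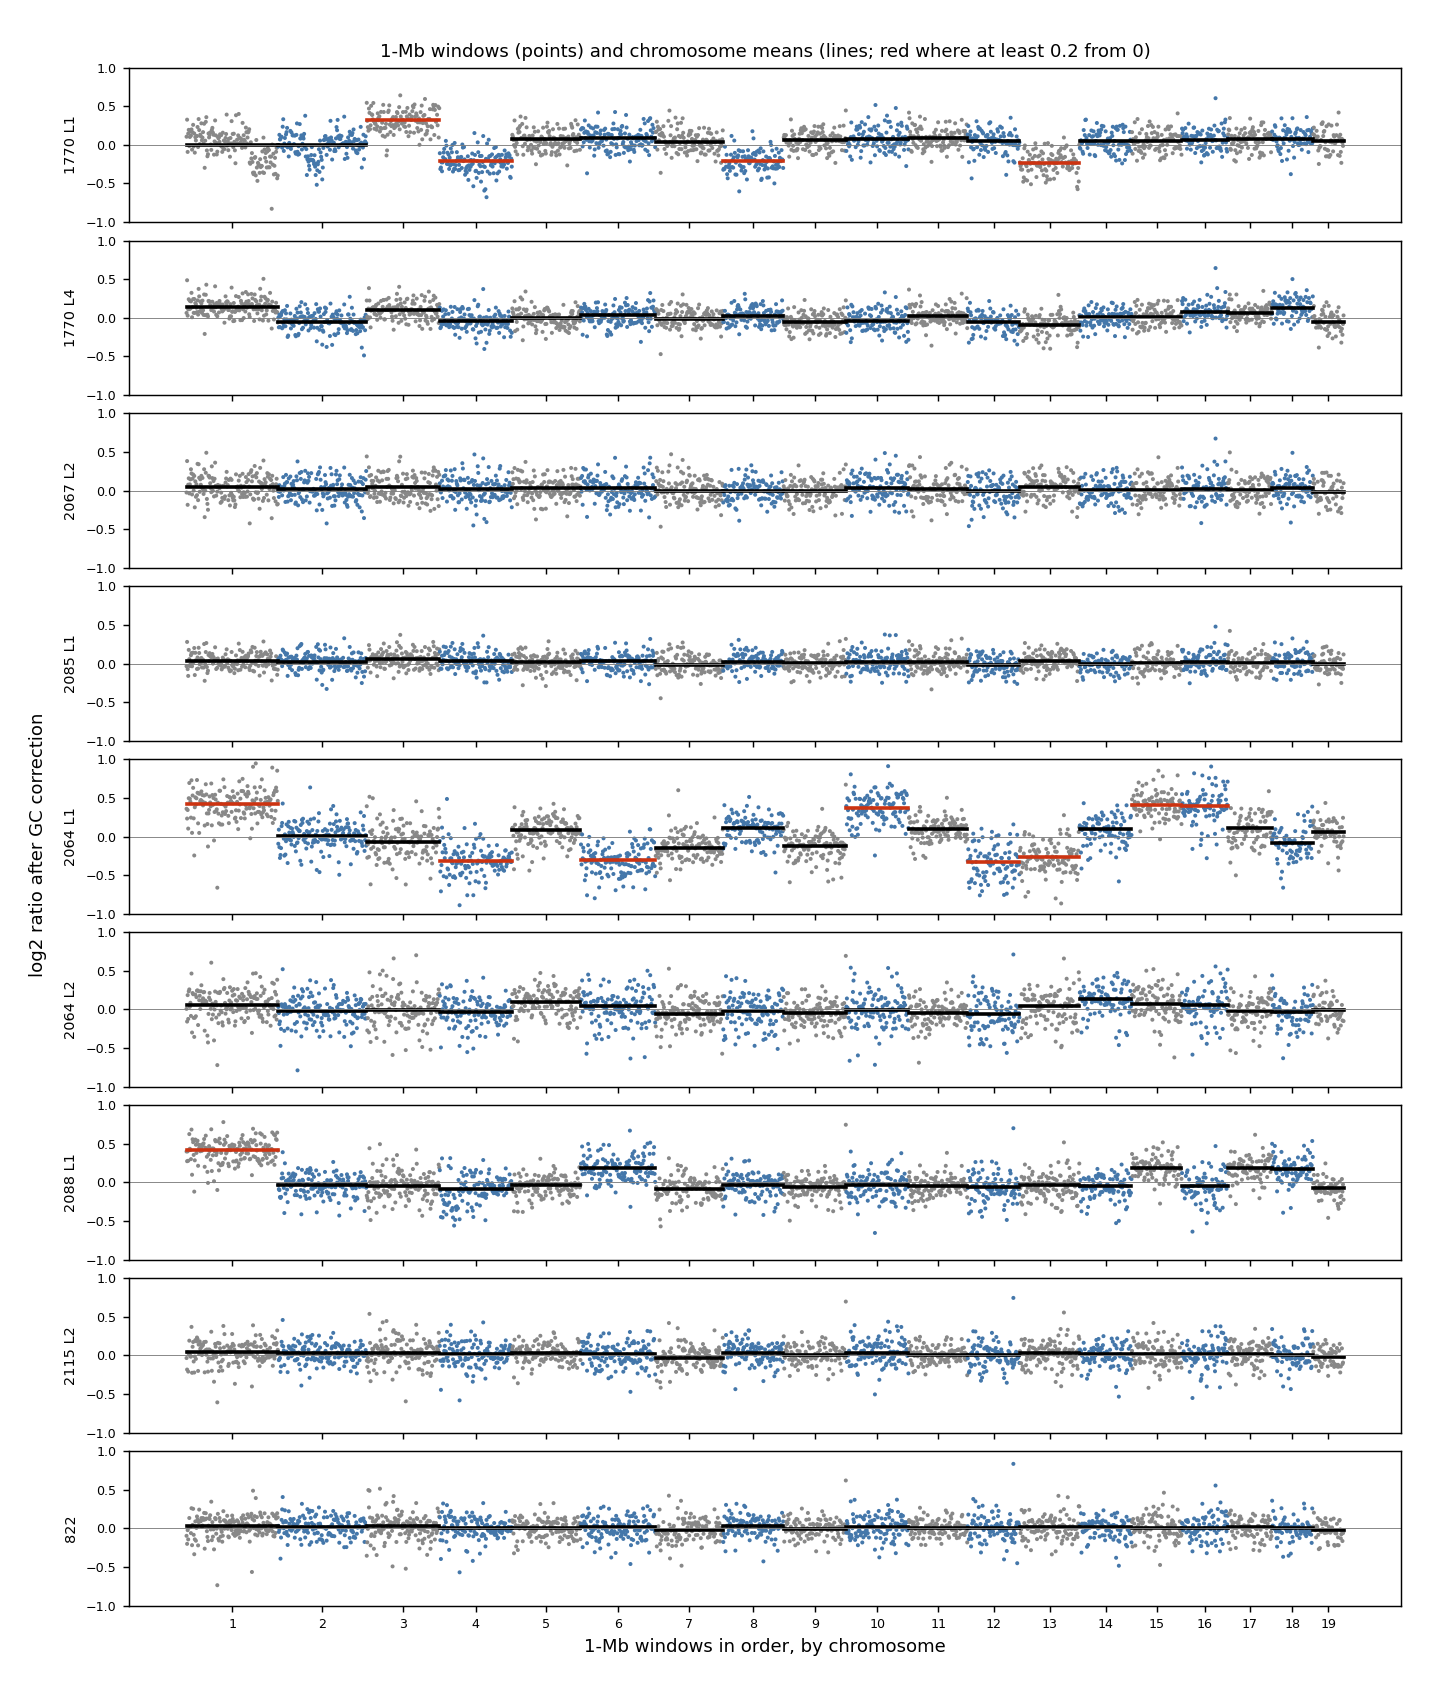
Log2 ratio after GC correction in 1-Mb windows (points, in order along chromosomes 1 to 19) for each tumour (panels, mouse number and lesion), with the mean of each chromosome as a line, red where it is at least 0.2 from 0. 10 of 18963 window values lie outside the axis of −1 to 1. Red lines appear in 1770 L1, 2064 L1 and 2088 L1, and the points of 1770 L1 step down within chromosomes 1 and 2.

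The other 6 tumours had no chromosome at the threshold, either with arrays centred on the median or after the GC correction. In mice 2067, 2085, 2115 and 822 the 19 chromosome means spread with a standard deviation of 0.035 to 0.074 before and 0.016 to 0.021 after the GC correction. By comparison the spread was 0.24 and 0.25 in mouse 2064 lesion 1. The second tumour of each pair lay between: mouse 1770 lesion 4 had chromosome 1 at 0.19, chromosome 3 at 0.19 and chromosome 18 at 0.17, and mouse 2064 lesion 2 had chromosome 14 at 0.19. Corrected for GC content these were 0.14, 0.10, 0.13 and 0.14. With that correction and centring on the most common level together, chosen after the data were seen, chromosomes 1 (0.21) and 18 (0.20) of mouse 1770 lesion 4 passed the threshold and chromosome 3 (0.18) did not. Mouse 2064 lesion 2 passed it on other scales too: centred on the most common level, chromosomes 7 (−0.22), 11 (−0.25) and 17 (−0.21) were lost, and with the authors' loess ratios chromosome 11 (−0.21) was lost and chromosome 14 (0.23) gained. With median centring, no whole-chromosome change was shared by the lesions of mouse 1770 or by those of mouse 2064. Lesions 1 and 2 of mouse 2064 differed by at least 0.2 on 8 chromosomes, before and after the GC correction, and those of mouse 1770 on 0 before and 2 after it.

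Counted by chromosome, chromosome 1 was gained in 2 of 7 mice, chromosome 4 was lost in 2 and chromosome 13 was lost in 2. Each of these is 28.6% of mice (95% exact Clopper-Pearson interval 3.67 to 71.0%). Gains of chromosomes 3, 10, 15, 16 and 18 and losses of chromosomes 8 and 12 were seen in 1 mouse each, 14.3% (0.361 to 57.9%), and chromosome 6 was gained in 1 mouse and lost in another. Chromosomes 2, 5, 7, 9, 11, 14, 17 and 19 were neither gained nor lost in any tumour with median centring, the scale of these counts, and chromosomes 7, 11, 14 and 17 passed the threshold in mouse 2064 lesion 2 on the other scales named above. A count of 0 of 7 mice has an exact upper limit of 41.0% (95% Clopper-Pearson), and the rule that 0 allows up to 3 counts gives 42.9%. These intervals overlap, so that no order of frequency among the chromosomes was detectable with 7 mice.

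Chromosome 1, gained in 2 mice, had a lowest value of 0.0057, a median of 0.11 and a highest of 0.46 over the 9 tumours. It was above 0 in all of them, and mouse 2064 lesion 1 and mouse 2088 lesion 1 stood apart from the next tumour, mouse 1770 lesion 4 at 0.19. Chromosome 4 ran from −0.31 over a median of −0.055 to 0.022. Only mouse 2064 lesion 1 and mouse 1770 lesion 1 were below −0.2, and the next lowest was mouse 2088 lesion 1 at −0.10, the tumour with the lost stretch. Chromosome 13 ran from −0.23 over 0.063 to 0.12, with a gap between the 2 tumours that lost it and the lowest of the others, mouse 1770 lesion 4 at −0.056. At the level of segments after the GC correction, all 167 windows of chromosome 1 were gained in 2 mice, 119 of the 132 windows of chromosome 4 were lost in 2 mice and a further 13 in 3 mice, and 108 of 109 windows of chromosome 13 were lost in 2 mice. Those 13 windows were the ones with the most frequent loss, and no window was gained in 3 mice. Before the correction 184 of 2107 windows were gained in 3 or more mice, 22 of them in 5, and 150 were lost in 3 or more, 10 of them in 5.

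The share of the autosomes in gained or lost segments was 0.023% in the lowest tumour and 46.1% in the highest. It averaged 17.7% ± 15.6 (SD, n = 7 mice), with 11% ± 10.5 gained and 6.71% ± 6.85 lost. Mouse 2064 lesion 1 had 46.1%, mouse 822 had 35.1%, mouse 1770 lesion 4 had 29.4% and mouse 1770 lesion 1 had 26.5%. Then came mouse 2064 lesion 2 with 22.2%, mouse 2088 lesion 1 with 21%, mouse 2085 lesion 1 with 3.83%, mouse 2115 lesion 2 with 1.68% and mouse 2067 lesion 2 with 0.023%. The kind of segment differed among these. The 15 altered segments of mouse 2064 lesion 1 had a median length of 69.9 Mb and the 9 of mouse 1770 lesion 1 one of 50.6 Mb, whereas the 71 of mouse 822 and the 58 of mouse 1770 lesion 4 had medians of 4.77 and 6.39 Mb.

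After the GC correction the altered share averaged 6.33% ± 8.67 (SD, n = 7 mice), and on that scale the 3 tumours with whole-chromosome changes had more than 1%. It was 43.6% in mouse 2064 lesion 1, 26.6% in mouse 1770 lesion 1 and 8.87% in mouse 2088 lesion 1, and 0.0187 to 0.135% in the other 6. Mouse 822 went from 35.1 to 0.133% and mouse 1770 lesion 4 from 29.4 to 0.108%. With mode centring added to the correction, mouse 1770 lesion 4 was at 11.8%, and the average was 7.16% ± 9.68 (SD, n = 7 mice). Mouse 822 and mouse 1770 lesion 4, with mouse 2064 lesion 2, had the steepest GC slopes, −0.58, −0.51 and −0.49 per 10 percentage points.

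**Figure D3:**
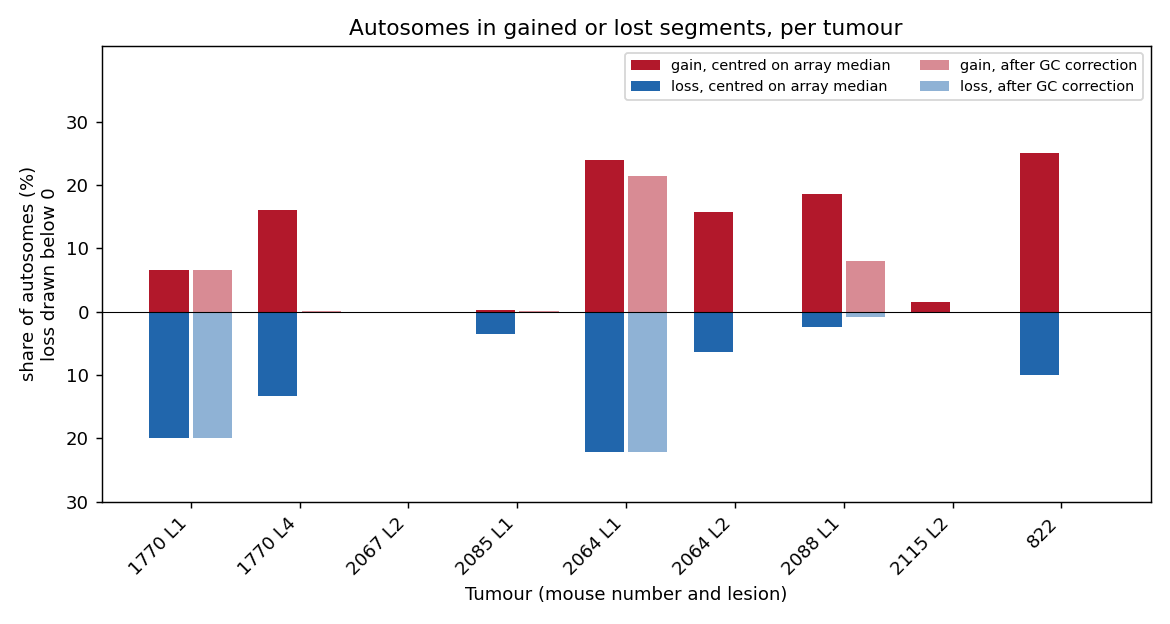
Share of the autosomes in gained (red, above 0) and lost (blue, below 0) segments in each tumour, in percent, centred on the array median (dark) and after GC correction (pale). The pale bars of 6 tumours are at or below 0.135%, while those of 1770 L1 and 2064 L1 are about as high as their dark bars.

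Over the 7 mice the altered share was set against the noise and the GC slope of their arrays. With the noise it had a Pearson r of 0.17 (exact permutation p = 0.673, adjusted 0.673) and a Spearman rho of −0.036 (p = 0.963, adjusted 0.963, exact permutation of all orders). With the GC slope r was −0.66 (exact permutation p = 0.0579, adjusted 0.116) and rho −0.82 (p = 0.0341, adjusted 0.0683), a larger altered share going with a steeper slope. Without the 2 mice farthest from the median slope, 822 and 2067, r was −0.34 (exact permutation p = 0.592, n = 5), over a narrower range of slopes, and leaving out 1 mouse at a time gave −0.74 to −0.55. Without the 2 farthest in noise, 2064 and 2067, r was 0.31 (exact permutation p = 0.55, n = 5). These were 2 relations, adjusted together, and neither passed. After the GC correction the altered share had r = 0.63 with the noise (exact permutation p = 0.134, adjusted 0.268) and 0.056 with the slope (p = 0.923, adjusted 0.923).

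Which chromosomes lay off the middle of the arrays in the group as a whole was tested with limma, with the mouse as a random block. The estimated correlation between lesions of one mouse was −0.10. The block therefore did not reduce the weight of mice with more than 1 lesion. Of 19 autosomes, 5 were higher (26.3%) and 1 was lower (5.26%) at an adjusted p under 0.05. Chromosome 1 was at 0.17 ± 0.15 (SD, n = 7 mice), with a fitted mean of 0.18 (standard error 0.046, adjusted p = 0.0192 by limma with Benjamini-Hochberg adjustment) and all 7 mice above 0. Chromosome 3 was at 0.11 ± 0.079, fitted 0.12 (standard error 0.032, adjusted p = 0.0192), again with 7 of 7 mice above 0. The other higher ones were chromosome 16 (0.086 ± 0.089, adjusted p = 0.0305), chromosome 18 (0.084 ± 0.072, adjusted p = 0.0305) and chromosome 14 (0.059 ± 0.052, adjusted p = 0.0305), each above 0 in 6 of 7 mice. Chromosome 7 was lower, at −0.073 ± 0.042 (adjusted p = 0.0305), below 0 in 7 of 7 mice. Chromosome 4, at −0.060 ± 0.084 with 4 of 7 mice below 0, had an adjusted p of 0.0539.

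After the GC correction limma called 0 of 19 chromosomes higher and 0 lower, with a smallest adjusted p of 0.286 and 3 chromosomes at an unadjusted p under 0.05. Chromosome 1 was then at 0.13 ± 0.15 (SD, n = 7), still above 0 in 7 of 7 mice, chromosome 3 at 0.043 ± 0.085 and chromosome 7 at −0.036 ± 0.043. Before the correction the order of the chromosomes followed their GC content: over the 19 chromosomes, which share the same arrays and are not independent samples, r between the mean GC content and the mean log2 ratio was −0.78, and it was −0.31 after the correction. Chromosome 3, with the lowest GC content (41.7%), was among the highest and chromosome 11, with the highest (45.4%), among the lowest. On slides 1, 2 and 3 chromosome 1 averaged 0.079, 0.28 and 0.11, and chromosome 3 averaged 0.16, 0.054 and 0.14, the direction being the same on all slides, as it was for chromosomes 7, 14, 16 and 18. Leaving out mouse 1770 left 0 chromosomes higher, leaving out mouse 822 left 2 and leaving out any other mouse left 4 or 5. Leaving out mouse 2064, 2088 or 822 left 0 lower, and leaving out mouse 2067, 2085 or 2115 left 2. An exact sign-flip permutation of the 7 mouse means, whose smallest possible p is 0.0156, gave 0 chromosomes past an adjusted p of 0.05 (smallest 0.0742) and 8 at an unadjusted p under 0.05. With the median profile of all 21 tumours subtracted, 0 chromosomes were higher and 0 lower, and chromosome 7 then stood at 0.025.

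**Figure D4:**
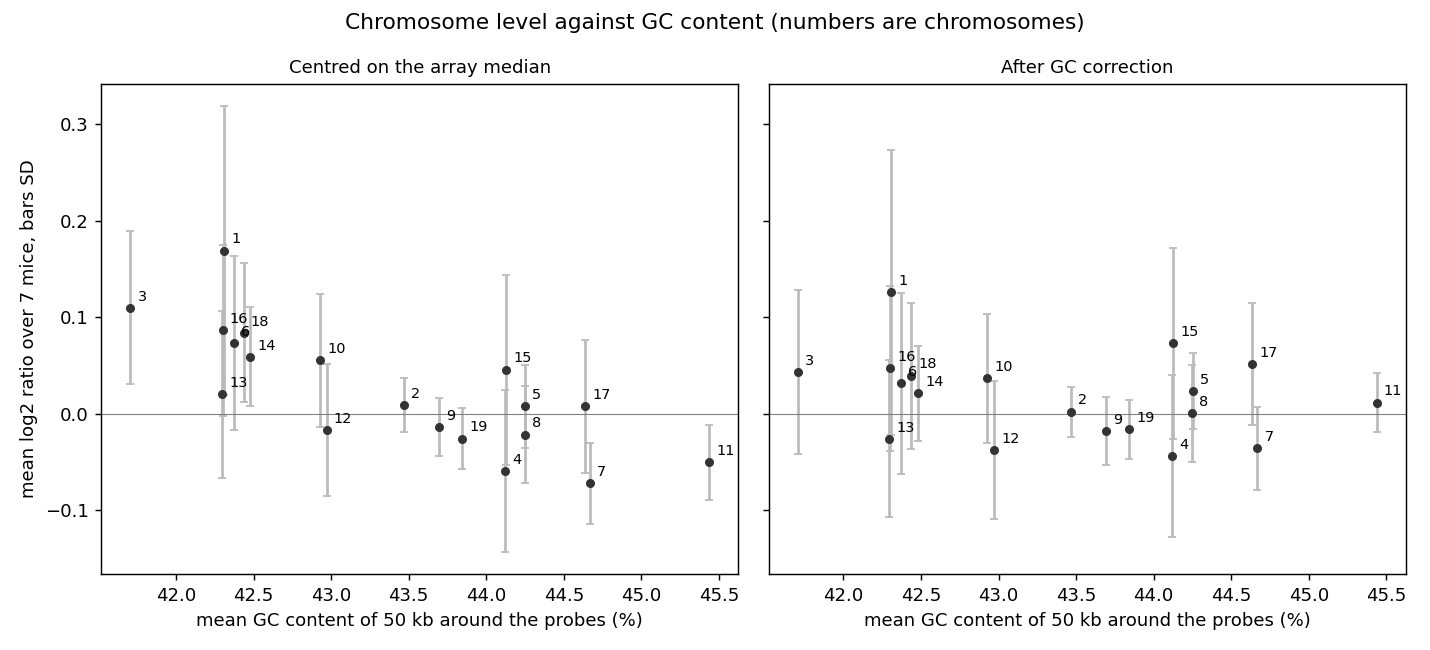
Mean log2 ratio of each chromosome over 7 mice (points numbered by chromosome, bars SD) against the mean GC content of the 50 kb around its probes, centred on the array median on the left and after GC correction on the right. The points fall from chromosome 3 at 41.7% GC to chromosome 11 at 45.4% on the left, and lie closer to 0 on the right, where chromosome 1 is the highest at 0.13.

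In windows of 1 Mb with at least 5 probes on every array, limma called 689 of 2107 higher (32.7%) and 313 lower (14.9%). With the GC correction 314 were higher (14.9%) and 221 lower (10.5%), and 366 windows passed on both scales with the same sign. Chromosome 1 held the most of the higher ones, 106 of its 167 windows before and 57 after the correction, and chromosome 4 the most of the lower ones, 45 and 31 of its 132. Those calls include windows that stood off 0 in every tumour: 492 windows were on the same side of 0 in all 9, of which 486 passed.

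The windows given by name were among those with the largest means of the windows that passed and lay on one side in all 9 tumours, and they leave out some windows with means as large or larger. On chr16:71000001-72000000 the log2 ratio was 0.57 to 0.92 (median 0.78), with 0.73 ± 0.13 over 7 mice (SD). This window held only 6 to 7 probes, and its fitted mean after the GC correction was 0.57. The window chr3:113000001-114000000 holds Amy1, an amylase with closely related copies beside it, and Col11a1, and it ran from 0.18 to 1.08, with a fitted mean of 0.33 after the correction. The window chr1:45000001-46000000, with the collagen genes Col3a1 and Col5a2 and the iron exporter Slc40a1, was at 0.18 to 0.71, and its corrected fitted mean was 0.30.

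The lower windows given by name lay in regions rich in G and C, with a GC content of 48.0 to 53.9%. The imprinted cluster of Dlk1 and Meg3 (chr12:110000001-111000000) was at −0.61 to −0.20 and the window of H19, Ctsd and the growth factor gene Igf2 (chr7:149000001-150000000) at −0.59 to −0.25. On chromosome 4 the window with Pax7, Ubr4 and Aldh4a1 (chr4:139000001-140000000) was at −0.72 to −0.21, and that with Trp73 and Prdm16 (chr4:153000001-154000000) at −0.74 to −0.14. The window chr10:80000001-81000000, with 58 gene names on its probes and a GC content of 53.9%, ran from −0.82 to −0.031, and after the GC correction it had a fitted mean of 0.016 (adjusted p = 0.798 by limma). Of the other 4 lower windows 3 passed after the correction as well, with fitted means of −0.19, −0.26 and −0.20, and that of Trp73 and Prdm16 had an adjusted p of 0.10. All 9 tumours were read against the same reference pool, so that a change shared by the tumours, a difference in the reference and a property of the probes cannot be told apart in such windows.

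The 46 listed genes of liver cancer were read in the same way, and 44 had probes named for them on an autosome. Of these 44, 15 were higher and 13 lower than the middle of the array in limma, adjusted over all 22150 gene neighbourhoods, of which 25.6% were higher and 29.4% lower. The median fitted log2 ratio of the listed genes was 0.027 and that of all neighbourhoods −0.011. With the GC correction 12 of the 44 were higher and 1 was lower, beside 17.5% and 9.4% of all neighbourhoods. Of the 28 called before it, 10 changed sign, and 3 of these (Ccnd1, Tsc2 and Axin1) were called lower before and higher after. With the median profile of all 21 tumours subtracted limma called 1 higher and 0 lower, beside 0.88% and 0.293% of all neighbourhoods.

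Of 19 oncogenes and growth factors, 7 were higher, 4 were lower and 8 did not pass, and after the GC correction 5 were higher and 1 was lower. Cdk6, a kinase of the G1 phase, was above 0 in all 9 tumours, at 0.038 to 0.35 with 0.20 ± 0.088 over 7 mice (SD, adjusted p = 0.000188 by limma). Met was at 0.23 ± 0.13 (adjusted p = 0.00381), above 0 in 8 of 9 tumours and below it in mouse 2064 lesion 1, and it had an adjusted p of 0.0858 after the GC correction. Mdm2 (0.14 ± 0.089) and Braf (0.15 ± 0.14) also passed on both scales, the second with the same tumour below 0. Igf2, the fetal growth factor, had −0.43 ± 0.061, below 0 in all 9 tumours at −0.61 to −0.31, and it was the only listed gene lower after the GC correction, with a fitted mean of −0.24. Ccnd1, cyclin D1, was lower at −0.14 ± 0.14 before the correction and higher at 0.091 ± 0.067 after it (adjusted p = 0.0276), so that its direction turned. Myc, at −0.23 to 0.24 with a mean of −0.039 ± 0.11, did not pass.

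Of 14 tumour suppressors, 4 were higher, 6 were lower and 4 did not pass, and after the GC correction 4 were higher and 0 lower in limma, with 4 of the 10 called before it changing sign. Rb1, the brake on S phase entry, was at 0.22 to 0.53 in the 9 tumours (0.32 ± 0.085, SD, n = 7 mice), and Arid2 at 0.10 to 0.69 (0.25 ± 0.13). Both were higher after the GC correction too, with fitted means of 0.22 and 0.26. Trp53, the p53 gene, was at −0.45 to −0.069 (−0.27 ± 0.047), below 0 in all 9 tumours, and at −0.070 ± 0.045 after the correction (adjusted p = 0.092 by limma). Arid1a was at −0.25 ± 0.12 before and −0.072 ± 0.085 after it (adjusted p = 0.0915). With the median profile of all 21 tumours subtracted, Trp53 was at 0.014 (adjusted p = 0.872 by limma) and Arid1a at 0.038 (adjusted p = 0.640). That profile includes these 9 tumours and removes what the tumours share, so these signs are relative to the series median. Stk11 was at −0.40 ± 0.14 before and 0.032 ± 0.080 after, which turned its direction. Tsc2, a brake on mTOR signalling, went from a fitted mean of −0.14 (adjusted p = 0.0117 by limma) to 0.095 (adjusted p = 0.0304), and Axin1, a scaffold of the complex that degrades beta-catenin, from −0.14 (adjusted p = 0.0185) to 0.13 (adjusted p = 0.0151). Cdkn2a did not pass, and its values had the widest range of the 44 genes, −0.54 to 0.32. It was below 0 in both tumours that lost chromosome 4, and also in mouse 2064 lesion 2 (−0.035) and mouse 2088 lesion 1 (−0.074).

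Among the 5 genes of the Wnt and oxidative stress pathways, Lgr5 (0.27 ± 0.16) and Nfe2l2 (0.19 ± 0.092) were higher and Keap1, which holds NRF2 in check, was lower (−0.26 ± 0.11). The direction of Lgr5 turned with the authors' loess ratios (−0.011, adjusted p = 0.861 by limma), and that of Nfe2l2 within 1 Mb of the gene (−0.038) and with the median profile of all 21 tumours subtracted (−0.0033). After the GC correction Lgr5 passed, and Nfe2l2 (adjusted p = 0.112 by limma) and Keap1 (adjusted p = 0.167) did not. Of 6 genes of hepatocyte identity, Foxa2, a pioneer factor, was higher before and after the correction (0.25 ± 0.11 and 0.23 ± 0.11), and Alb, albumin, at 0.15 ± 0.13, was higher before it only and turned to −0.032 with the profile subtracted. In this group 2 were higher and 2 lower before the correction, and 2 and 0 after it. The counts of the list are a description of these genes beside the shares of all neighbourhoods. Rb1, Arid2, Cdk6, Foxa2 and Igf2 were each on one side of 0 in all 9 tumours. For such genes too, a change shared by the tumours, a difference in the reference and a property of the probes cannot be told apart.

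**Figure D5:**
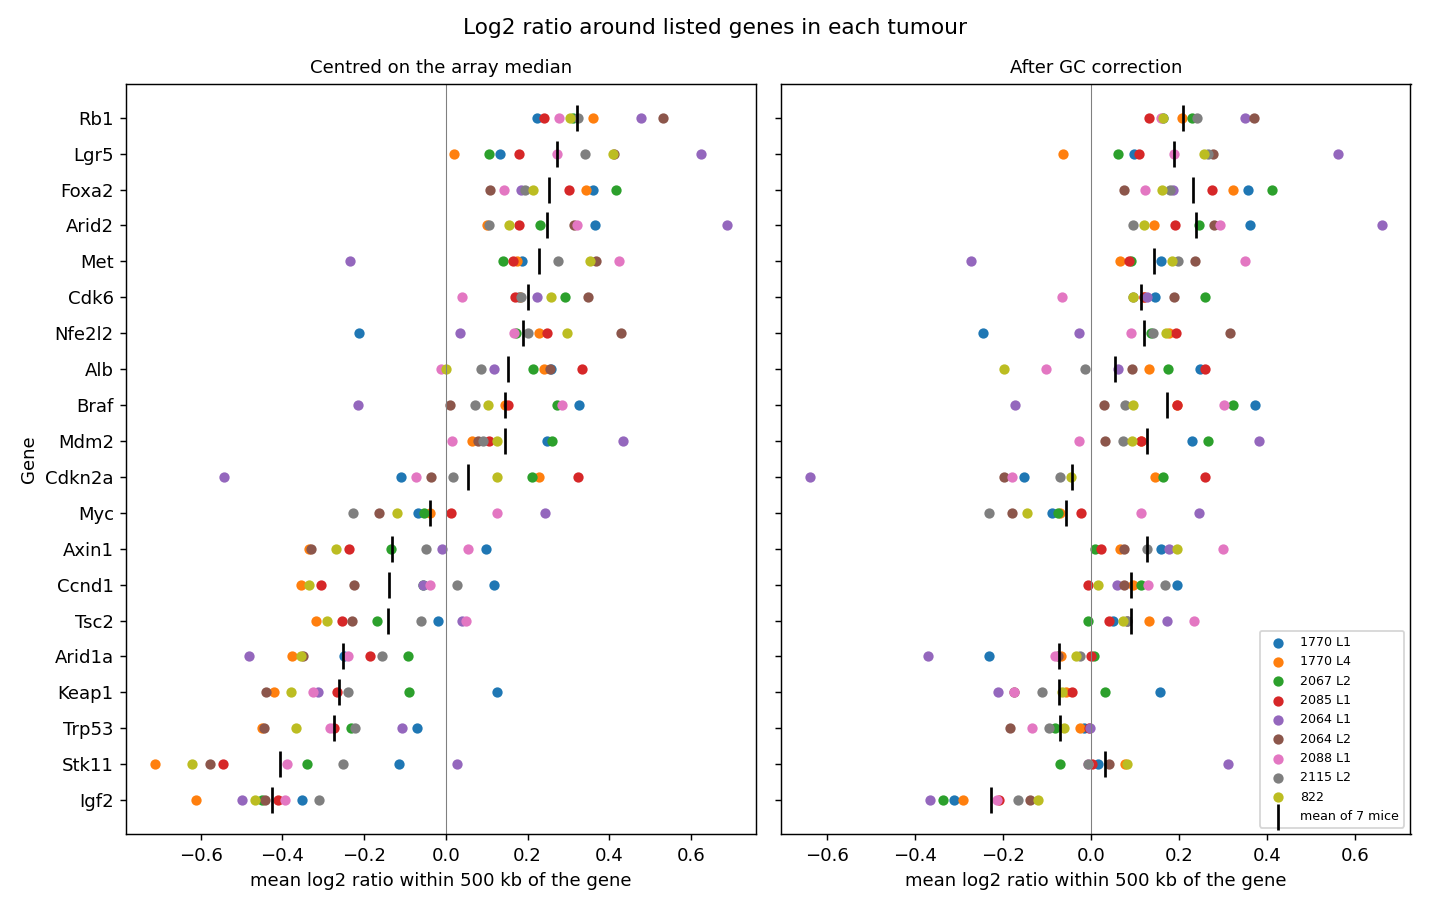
Mean log2 ratio within 500 kb of listed genes (rows) in each of the 9 tumours (coloured points) and the mean of 7 mice (black bar), centred on the array median on the left and after GC correction on the right. The purple points of 2064 L1 lie apart at Arid2, Lgr5 and Mdm2 on the high side and at Met, Braf and Cdkn2a on the low side, in both panels, and most genes below −0.2 on the left move towards 0 on the right.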

How the data were processed

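Array comparative genomic hybridization was read from the deposited scanner files, which hold the processed intensity of both channels for every spot as the authors' Feature Extraction 11.0.1.1 wrote it, with background subtracted and dyes normalized. The authors also deposited loess-normalized log2 ratios, used as an alternative only. For each of the 9 tumours log2 of tumour over reference intensity was taken, control and outlier spots left out, and the median of the array subtracted. Sex chromosomes were not analysed here. Probe positions are those of the files (mm9). For GC content, probes were placed by exact sequence on GRCm38 (99.9% at 1 place), and no position was carried between builds.

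Means over chromosomes, 1-Mb windows with at least 5 probes and probes within 500 kb of a gene were tested against 0 with limma 3.58.1 in R 4.3.3, with the mouse as a random block and Benjamini-Hochberg adjustment over each whole table. Such p-values measure the spread between these tumours. Segments were found per chromosome by least-squares partitioning (penalty per break of 3 noise variances, scaled by ln of the probe number; at least 10 probes), in Python 3.11.15. The limma step was tested on simulated 1-Mb windows with independent noise, without a GC trend or a correlation within mice. The text names every chromosome past a threshold, the listed genes by role, and up to 5 higher and 5 lower windows with the largest means on one side in all tumours, of which 2 are not reported here, nor are some listed genes. Of the listed genes 2 were left out, 1 of them on X. Members and lists were chosen with earlier results of these data known. Background correction, normalization, centring, GC content, probe sets, thresholds, window sizes, blocks and leaving out each mouse were varied.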

Additional observations from a re-analysis of the deposited data

Results flagged for a closer look

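In each of 46 sets of 7 mouse values (chromosome means before and after GC correction, and array measures), the highest or lowest mouse was compared with the nearest other mouse, and in 8 sets (17.4%) that gap, as a share of the whole range, was above Dixon's 95% critical value. Chance gives this in about 1 in 20 sets, and the sets share the same arrays. Mouse 2064, averaged over its lesions, stood apart on chromosome 10 (0.20, others −0.019 to 0.058), chromosome 12 (−0.16, others −0.032 to 0.045) and chromosome 16 (0.27, others −0.0073 to 0.096). These are changes of lesion 1 already described, and lesion 2 read 0.016, −0.020 and 0.12 on these chromosomes. After GC correction mouse 2064 stood apart on chromosome 10 (0.18, others −0.038 to 0.039) and chromosome 12 (−0.19, others −0.057 to 0.0099). Mouse 1770, also averaged, stood apart on chromosome 3 after the correction (0.21, with 0.32 in lesion 1 and 0.10 in lesion 4, others −0.040 to 0.062). On chromosome 17 mouse 2088 stood apart after the correction (0.19, others 0.0078 to 0.066), just under the threshold for a gain. Mouse 822, the only one on slide 3, had the steepest GC slope, −0.58 per 10 percentage points against −0.35 to −0.18 in the others.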

How the results depend on the processing

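The 15 whole-chromosome changes kept their sign under every alternative run for them, and 5 of their values moved by more than the spread, all under normexp background correction, whereas counts over the group depended on the processing. The cause was not tested. No paired analysis was possible because the comparison is of 1 group with its own reference channel, and no numbers pair its samples with another group. Chromosomes higher (5) and lower (1) became 3 and 6 with normexp, 0 and 4 with the authors' loess ratios, 1 and 7 when centred on the mode, and 0 and 0 with either GC correction, with the GC correction and mode centring together, with the profile of all 21 tumours subtracted and in the exact sign-flip permutation. Chromosome medians gave 0 higher, and slide as a block, array weights and probes well above background each gave 2 lower. Leaving out 1 mouse gave 0 to 5 higher and 0 to 2 lower, and after GC correction 0 and 0. Windows higher (689) became 231 with loess ratios, 314 and 319 with the GC corrections, 434 on the mode, 423 on probes common to both designs, 252 with GC and mode together, 194 in 5-Mb windows and 0 with the profile subtracted. Windows lower (313) became 476 on the mode, 566 at 0.5 Mb, 77 at 5 Mb and 0 with the profile subtracted. Leaving out 1 mouse gave 597 to 690 and 275 to 293, and after GC correction 241 to 297 and 161 to 205. Listed genes higher (15) became 9 on the mode and 1 with the profile subtracted, and those lower (13) became 1 with either GC correction, 1 with GC and mode together and 0 with the profile. Leaving out 1 mouse gave 14 to 17 higher and 10 to 14 lower, and after GC correction 9 to 15 and 1 to 2. Gains of whole chromosomes (8) became 2 with normexp and 26 at a threshold of 0.1. Losses (7) became 1 with normexp, 4 on common probes, 14 at 0.1 and 2 at 0.3. Leaving out 1 mouse gave 4 to 8 gains (4 without mouse 2064, 5 without mouse 2088) and 3 to 7 losses (3 without mouse 2064, 4 without mouse 1770). The altered share (17.7%) was 43.1% at a threshold of 0.1 and 14.8 to 20.6% with 1 mouse left out. Pairs of tumour and chromosome altered over at least 50% of the length (25) became 6 with normexp, 13 with either GC correction, 16 on common probes, 14 with the profile, 15 with GC and mode together, 64 at 0.1 and 7 at 0.3, and 14 to 25 with 1 mouse left out. Over mice, r of the altered share with array noise ran from −0.27 to 0.52 with 1 mouse left out, and that with the GC slope from −0.74 to −0.55, and the second was 0.056 after GC correction and 0.086 with GC and mode together. Values with the profile subtracted are distances from the series median. On that scale the sign turned for chromosome 7 (0.025), Trp53 (0.014), Arid1a (0.038, and 0.091 in mouse 1770 lesion 1), Nfe2l2 (−0.0033), Alb (−0.032), Ccnd1 (0.096), Stk11 (0.089), Tsc2 (0.11) and Axin1 (0.079). It also turned for Ccnd1 (0.094, 0.088 and 0.083), Stk11 (0.048, 0.039 and 0.037), Tsc2 (0.095, 0.090 and 0.084) and Axin1 (0.13, 0.12 and 0.12) with the GC correction, with slopes within chromosomes and with GC and mode together. Other turns were those of Lgr5 with loess ratios (−0.011), Nfe2l2 within 1 Mb (−0.038), Cdkn2a with normexp (0.026) and Jun on common probes (0.15), both in mouse 1770 lesion 1, and in mouse 2064 lesion 1 those of Jun with loess ratios (−0.23) and the profile subtracted (−0.056) and of Stk11 with normexp (−0.16), on common probes (−0.082) and within 250 kb (−0.046). Mode centring after GC correction and leaving out mice after it were chosen after seeing the data.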
